A study of Mus musculus with 4 samples.

Results

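The forkhead transcription factors of the facial mesenchyme were followed as a group of 10 genes: *Foxc1*, *Foxc2*, *Foxd1*, *Foxd2*, *Foxf1*, *Foxf2*, *Foxp1*, *Foxp2*, *Foxp4* and *Foxl2*. They were taken by gene symbol from a table of 13577 genes, and the rule uses no measured value. The members and the gene lists used below were, however, chosen with earlier results of these data known. The shares over all genes given below therefore do not come from a blind choice. The table holds bulk RNA-Seq of nasal process (NP) tissue from mouse embryos at E11.5, in 4 libraries, of which 2 have control in their title and 2 have ca-*Acvr1* mutant (mutant or ca-*Acvr1(A11)* libraries in what follows, A11 being the line named in the genotype entries). By the study's methods both groups carry the P0-*Cre* transgene, which recombines in neural crest-derived cells, and are of mixed background. The mutants also carry a constitutively active ACVR1, a type I BMP receptor, expressed from a CAG promoter after recombination, so epithelium and other cells outside the crest keep an unrecombined transgene. The genotype recorded for each library contradicts its title: P0-*Cre* alone for the mutants and ca-*Acvr1(A11)* with P0-*Cre* for the controls. The titles were followed here, and every direction below turns around if it is the titles that are wrong.

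Forkhead (FOX) proteins bind DNA through a winged-helix domain and are sorted into lettered subfamilies by its sequence. FOXC, FOXD, FOXF and FOXL2 proteins bind mostly as single molecules and are made in head mesenchyme, much of it derived from neural crest, where they help pattern the skull, the eye region, the palate and the upper face. FOXF and FOXD genes of facial mesenchyme are known to respond to Sonic hedgehog from the neighboring epithelium. FOXP proteins form dimers with one another and act mainly as repressors.

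The libraries held 1956831 to 2408827 reads, and 1 read was worth 0.415 to 0.511 CPM. Each member had between 3 and 1001 reads in a library, and all 10 passed the filter of a mean above 1 CPM that left 12462 genes to test. *Acvr1* itself stood at 21.5 and 23.1 CPM in control libraries and at 24.1 and 12.6 CPM in mutant libraries (log2 fold change −0.33 ± 0.28 (SE), adjusted p = 0.786 by limma). The reads of the transgene may not be part of that count, so this gene does not settle which labels are right. Nothing in the labels says whether the libraries came from separate embryos or litters, and p-values measure only the spread between these libraries. An exact permutation test of 2 against 2 libraries cannot go below p = 0.333, so tests were made in fits across all genes.

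All 10 forkhead factors had a lower mean log2 level in ca-*Acvr1(A11)* than in control NP tissue, where 45.8% of the 12462 genes lay below 0. Of the 10, 3 passed the test, *Foxp2*, *Foxc1* and *Foxc2*, with falls of 51.9%, 40.5% and 48.4% in mean CPM, against 0.594% of all genes called lower. None was called higher, against 0.305% of all genes. At an unadjusted p under 0.05, 0 were higher and 5 were lower, *Foxd1* and *Foxf1* being the added genes, against 4.12% of all genes lower and 9.55% in either direction. In all, 112 genes (0.899%) were called, 38 higher and 74 lower. The median log2 fold change of the members was −0.59 and that of all genes 0.03. Their summed level was 1010 and 1200 CPM in control libraries and 720.3 and 822.6 CPM in mutant libraries.

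In 7 of the 10 genes both ca-*Acvr1(A11)* libraries lay below both control libraries, as in 16.8% of all genes. Control replicate 2 was the highest of the libraries for 9 members, and ca-*Acvr1(A11)* replicate 1 the lowest for 8. On recovered reads, the quasi-likelihood test of edgeR called 5 members lower (0.859% of all genes), and DESeq2 called 2, *Foxp2* and *Foxc1* (0.294% of the 10529 genes given an adjusted p). With limma, 6 members were called lower without control replicate 1 (1.80% of all genes), 2 without control replicate 2 (0.432%), 5 without ca-*Acvr1(A11)* replicate 2 (0.633%) and 1, *Foxp2*, without ca-*Acvr1(A11)* replicate 1 (0.501%). These fits leave 1 library in a group, which is assumed to vary like the other group. Without the mean-variance trend limma called 0 members and 0 genes of the table, with 5 members and 432 genes lower at an unadjusted p under 0.05. In bulk tissue, fewer cells of a type and less RNA per cell cannot be told apart.

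**Figure D1:**
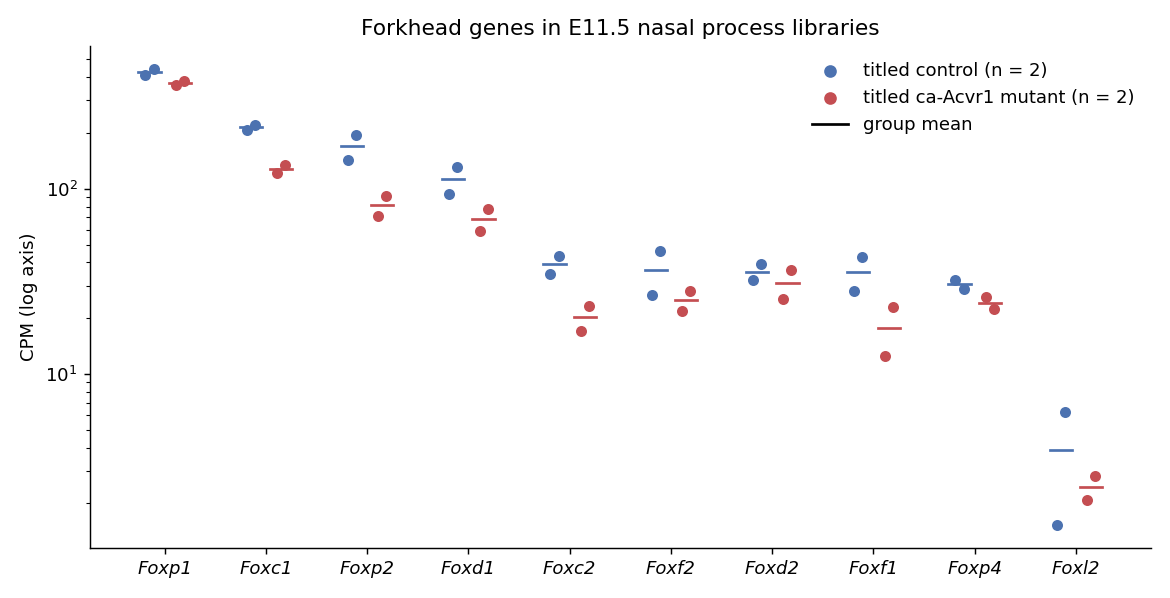
Level of each forkhead factor in CPM (log axis) in every library, with control and ca-*Acvr1(A11)* libraries marked separately. The 2 groups do not overlap for *Foxp1*, *Foxc1*, *Foxp2*, *Foxd1*, *Foxc2*, *Foxf1* and *Foxp4*, and they overlap for *Foxf2*, *Foxd2* and *Foxl2*.

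The libraries were primed at the poly(A) tail, so reads do not add up along a transcript and CPM can be set side by side between genes, apart from differences in priming and in the annotated ends. In control tissue *Foxp1* was the most abundant at 427 ± 24.1 CPM (SD, n = 2), followed by *Foxc1* (215 ± 9.21), *Foxp2* (169 ± 37.6) and *Foxd1* (113 ± 27.1). These levels did not overlap between neighbors in the order. *Foxc2*, *Foxf2*, *Foxd2*, *Foxf1* and *Foxp4* came next, between 39.1 and 30.5 CPM, and neighbors among these 5 overlapped. *Foxl2* was last at 3.87 ± 3.31 CPM and overlapped with none. In ca-*Acvr1(A11)* tissue *Foxp2* (81.4 ± 14.7 CPM) and *Foxd1* (68.3 ± 13.2 CPM) overlapped, whereas in control tissue they did not.

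*Foxc1* and *Foxc2* encode closely related activators needed for the skull base, the meninges and the front of the eye. *Foxc1* is a gene of 1 exon on chromosome 13, from 31806633 to 31812476 on the plus strand (GRCm38). It stood at 208.5 and 221.5 CPM in control libraries and at 122.1 and 133.8 CPM in mutant libraries. The gap between the groups was larger than the spread within either group. *Foxc1* fell by 0.75 on the log2 scale (SE 0.14, 95% interval −1.04 to −0.45, limma adjusted p = 0.00608) and ranked 40 of 12462 genes by p. It was called under 15 of 17 alternatives and lost the call without the mean-variance trend (adjusted p = 0.427) and without ca-*Acvr1(A11)* replicate 1 (0.0862), by limma.

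*Foxc2*, of 1 exon on chromosome 8 from 121116171 to 121118895 on the plus strand, stood at 34.8 and 43.5 CPM in control libraries and at 17.0 and 23.4 CPM in mutant libraries. All its values came from 41 to 98 reads, and the groups did not overlap. Its log2 fold change was −0.93 (SE 0.23, 95% interval −1.40 to −0.45), with a limma adjusted p of 0.0497 that lay just under the threshold. Of 17 alternatives 8 called it, and the adjusted p ran from 0.00444 to 0.525, the highest being that of DESeq2. Leaving out control replicate 2 or ca-*Acvr1(A11)* replicate 1 ended the call (limma adjusted p = 0.307 and 0.409). *Foxc2* made up 14.3% and 16.4% of the reads of the FOXC pair in control libraries and 12.2% and 14.9% in ca-*Acvr1(A11)* libraries. These shares overlapped between the groups.

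*Foxd1* marks mesenchyme near the eye and the nasal processes and *Foxd2* is its relative in cranial mesenchyme. *Foxd1*, of 1 exon on chromosome 13 from 98354242 to 98359305 on the plus strand, stood at 93.5 and 131.8 CPM in control libraries and at 58.9 and 77.7 CPM in mutant libraries. The lowest control value was above the highest ca-*Acvr1(A11)* value, but the control libraries differed from one another by more than this gap. Its log2 fold change of −0.71 (SE 0.18, 95% interval −1.08 to −0.34) did not pass the test by limma (adjusted p = 0.0587). It was called by edgeR (adjusted p = 0.0136) and under 8 of 17 alternatives, with an adjusted p from 0.000124 to 0.579. Its log2 fold change was −0.46 without control replicate 2.

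*Foxd2*, of 1 exon on chromosome 4 from 114906282 to 114908873 on the minus strand, stood at 32.2 and 39.1 CPM in control libraries and at 25.3 and 36.5 CPM in mutant libraries. The groups overlapped. Its log2 fold change was −0.22 (SE 0.22, limma adjusted p = 0.846), the interval reached from −0.67 to 0.24, and 0 of 17 alternatives called it. *Foxd1* gave 74.4% and 77.1% of the reads of the FOXD pair in control libraries. In ca-*Acvr1(A11)* libraries it gave 70.0% and 68.0%, both below the control shares. The 95% exact binomial interval of each of these shares, which covers counting error only, overlapped with that of control replicate 1 (68.5% to 79.7%).

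The 250 bases up to the start of transcription are shown for *Foxc1*, *Foxd1* and *Foxd2* so that a called gene and a pair of relatives can be read side by side. They are RefSeq sequences of GRCm38.p6, written 5′ to 3′ on the strand of the gene. The RefSeq starts lie some bases away from the gene coordinates given above, and motif positions count from the RefSeq starts. Capitals mark matches on either strand to 5 motifs: the forkhead motif TGTTTAC, the GLI core TGGGTGG, the SMAD motifs GGCGCC and CAGAC, and the homeodomain motif TAATTA.

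Foxc1, chr13:31806396-31806645, plus strand: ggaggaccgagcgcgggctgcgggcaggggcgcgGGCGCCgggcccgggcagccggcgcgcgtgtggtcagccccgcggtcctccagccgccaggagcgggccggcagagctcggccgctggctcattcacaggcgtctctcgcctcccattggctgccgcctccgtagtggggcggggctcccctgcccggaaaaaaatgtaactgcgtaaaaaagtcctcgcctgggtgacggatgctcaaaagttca

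Foxd1, chr13:98353995-98354244, plus strand: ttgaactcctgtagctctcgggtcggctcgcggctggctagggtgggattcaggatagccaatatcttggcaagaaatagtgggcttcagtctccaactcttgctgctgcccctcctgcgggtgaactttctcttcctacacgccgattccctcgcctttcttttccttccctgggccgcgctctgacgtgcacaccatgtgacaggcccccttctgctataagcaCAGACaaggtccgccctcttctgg

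Foxd2, chr4:114908899-114909148, minus strand: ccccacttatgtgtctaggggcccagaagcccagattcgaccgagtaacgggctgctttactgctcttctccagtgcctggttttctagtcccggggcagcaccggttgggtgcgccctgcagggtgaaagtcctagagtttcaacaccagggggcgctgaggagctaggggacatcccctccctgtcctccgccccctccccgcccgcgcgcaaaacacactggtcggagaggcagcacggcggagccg

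The *Foxc1* promoter held GGCGCC at −216, the *Foxd1* promoter held CAGAC at −24, and the *Foxd2* promoter held none of the 5 motifs. GC content was 70.8%, 57.2% and 64.4%, against a median of 52.4% over 32851 promoters of the same length. Of these promoters 9.59% held GGCGCC, 42.2% CAGAC, 3.17% TGTTTAC, 8.11% TGGGTGG and 4.84% TAATTA. An entry was found for 7 members, with 9 promoters in all, and none of the 9 held TGTTTAC or TGGGTGG. *Foxc2*, *Foxf1* and *Foxp2* had no entry.

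*Foxf1* and *Foxf2* are Hedgehog-responsive factors of mesenchyme that lies under epithelium, and *Foxf2* is required for closure of the palate. *Foxf1*, of 2 exons on chromosome 8 from 121084386 to 121088144 on the plus strand, stood at 28.1 and 42.6 CPM in control libraries and at 12.5 and 22.9 CPM in mutant libraries. The groups did not overlap, and each had a wide spread. The mean was 49.97% lower in ca-*Acvr1(A11)* tissue and the log2 fold change was −0.99 (SE 0.27, 95% interval −1.54 to −0.44). It did not pass the test by limma (adjusted p = 0.0888). edgeR called it (adjusted p = 0.0288), as did 5 of 17 alternatives in all, over a range of 0.000924 to 0.744. With single libraries left out its log2 fold change ran from −0.57 (without ca-*Acvr1(A11)* replicate 1) to −1.41 (without ca-*Acvr1(A11)* replicate 2).

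*Foxf2*, of 2 exons on chromosome 13 from 31625816 to 31631403 on the plus strand, stood at 26.6 and 46.2 CPM in control libraries and at 22.0 and 28.1 CPM in mutant libraries. Its groups overlapped, since control replicate 1 lay below ca-*Acvr1(A11)* replicate 2. The log2 fold change was −0.48 (SE 0.24, 95% interval −0.98 to 0.02, limma adjusted p = 0.556). Leaving out control replicate 2 brought it to −0.09, and leaving out control replicate 1 to −0.87, the only one of 17 alternatives that called *Foxf2* (limma adjusted p = 0.0301). *Foxf1* gave 51.4% and 48.0% of the reads of the FOXF pair in control libraries and 36.1% and 45.0% in ca-*Acvr1(A11)* libraries. With 83 to 200 reads for the pair in a library, the intervals of these shares were wide, from 25.9% to 47.4% for the lowest of them, and overlapped between the groups.

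*Foxp1*, *Foxp2* and *Foxp4* encode the repressors of the group, long genes of many exons. FOXP2 is best known for its part in speech and the brain, and it is also made in facial mesenchyme. *Foxp2*, on chromosome 6 from 14901349 to 15441977 on the plus strand, stood at 142.6 and 195.8 CPM in control libraries and at 71.0 and 91.7 CPM in mutant libraries. The lower control value was above the higher ca-*Acvr1(A11)* value, but the control libraries differed from one another by slightly more than this gap. *Foxp2* fell by 1.04 on the log2 scale (SE 0.17, 95% interval −1.39 to −0.69, limma adjusted p = 0.000809), ranking 25 of 12462 genes by p and lowest in p among the 10. edgeR and DESeq2 also called it (adjusted p = 4.92e-05 and 0.00108). It was called under 16 of 17 alternatives, and the exception was limma without the mean-variance trend (adjusted p = 0.426).

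*Foxp1*, on chromosome 6 from 98925338 to 99522721 on the minus strand, stood at 410.4 and 444.4 CPM in control libraries and at 363.2 and 383.2 CPM in mutant libraries. The groups did not overlap, but the mean differed by 12.7% only. Its log2 fold change was −0.19 (SE 0.13, limma adjusted p = 0.716), and the 95% interval of −0.47 to 0.08 did not reach the values of *Foxp2*. *Foxp4*, on chromosome 17 from 47867133 to 47924645 on the minus strand, stood at 32.2 and 28.9 CPM in control libraries and at 26.2 and 22.5 CPM in mutant libraries. Its log2 fold change was −0.32 (SE 0.22, 95% interval −0.78 to 0.14, limma adjusted p = 0.723), and 0 of 17 alternatives called it.

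*Foxp2* gave 24.4% (95% exact binomial interval 21.9% to 27.0%) and 29.3% (27.0% to 31.6%) of the reads of the 3 genes in control libraries. In ca-*Acvr1(A11)* libraries it gave 15.4% (13.3% to 17.7%) and 18.4% (16.2% to 20.9%). The intervals of the control libraries did not overlap with those of the ca-*Acvr1(A11)* libraries. They cover counting error only, and the difference between the groups was not tested. Of the shares computed within the 4 subfamilies, this is the one for which that held.

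**Figure D2:**
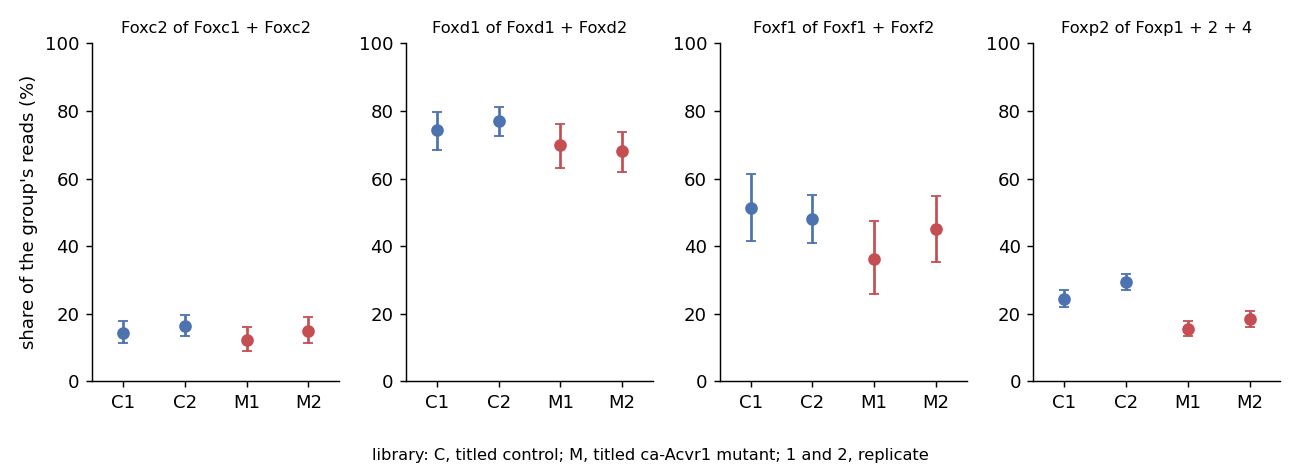
Share of 1 gene among the reads of its subfamily, in percent, for each library (C control, M mutant), with 95% exact binomial intervals (counting error only) as bars. The share of *Foxp2* among FOXP reads lies at 24.4% and 29.3% in control libraries and at 15.4% and 18.4% in ca-*Acvr1(A11)* libraries, and the intervals of the other subfamilies overlap between the groups.

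FOXL2, a factor of the eyelids and the ovary, was the rarest of the group. *Foxl2*, of 1 exon on chromosome 9 from 98955288 to 98958543 on the plus strand, had 3 and 14 reads in control libraries (1.53 and 6.21 CPM) and 5 and 6 reads in ca-*Acvr1(A11)* libraries (2.08 and 2.81 CPM). The control libraries spanned the ca-*Acvr1(A11)* libraries, and a difference was not detectable at this depth. The log2 fold change was −0.32 (SE 0.49, 95% interval −1.33 to 0.69, limma adjusted p = 0.91) and changed sign without control replicate 2 (0.43). On the log2(CPM + 1) scale the change of so low a gene is understated.

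**Figure D3:**
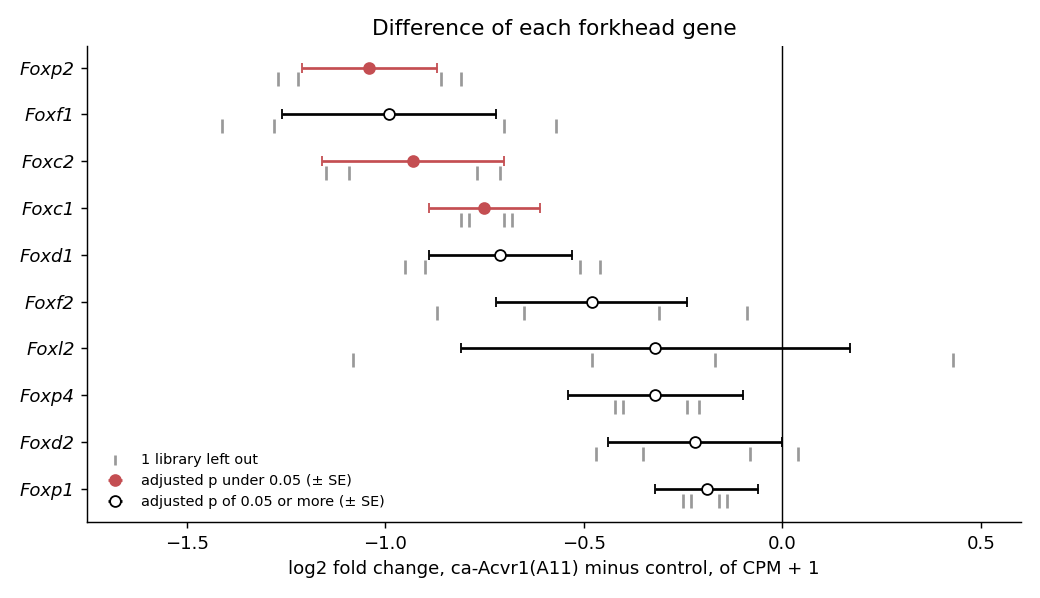
Log2 fold change of each forkhead factor, ca-*Acvr1(A11)* minus control, on the log2(CPM + 1) scale, with bars of 1 SE, filled red points for adjusted p under 0.05 and grey ticks for the value with each library left out in turn. All 10 points lie below 0, from −1.04 for *Foxp2* to −0.19 for *Foxp1*, and a tick lies above 0 for *Foxl2* (0.43) and *Foxd2* (0.04).

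Of the members, 4 lie in 2 clusters that pair a FOXC gene with a FOXF gene. On chromosome 13 the start sites of *Foxf2* and *Foxq1* lie at −180.8 kb and −250.5 kb from that of *Foxc1*. On chromosome 8 the start sites of *Foxf1* and *Foxl1* lie at −31.8 kb and 11.8 kb from that of *Foxc2*. In the first cluster *Foxc1* fell, whereas *Foxf2* had a log2 fold change of −0.48 and *Foxq1* of −0.24 (limma adjusted p = 0.556 and 0.909). In the second cluster *Foxf1* and *Foxc2* had nearly the same value, −0.99 and −0.93, and *Foxl1* had −0.34 (adjusted p = 0.856). *Gmds* and *Mthfsd*, which lie beside or between them and are not forkhead genes, had values of −0.01 and 0.08. Neither was called (limma adjusted p = 0.995 for *Gmds*). *Gmds*, *Mthfsd*, *Foxq1* and *Foxl1* were chosen as neighbors after the members' values were seen. Reads in *Foxf1* and *Foxc2* overlap the predicted gene *Gm20388* on the same strand and could be split between them by the counting. The same limit holds for *Foxp1*, which overlaps the protein-coding gene *Gm20696* on its own strand.

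**Figure D4:**
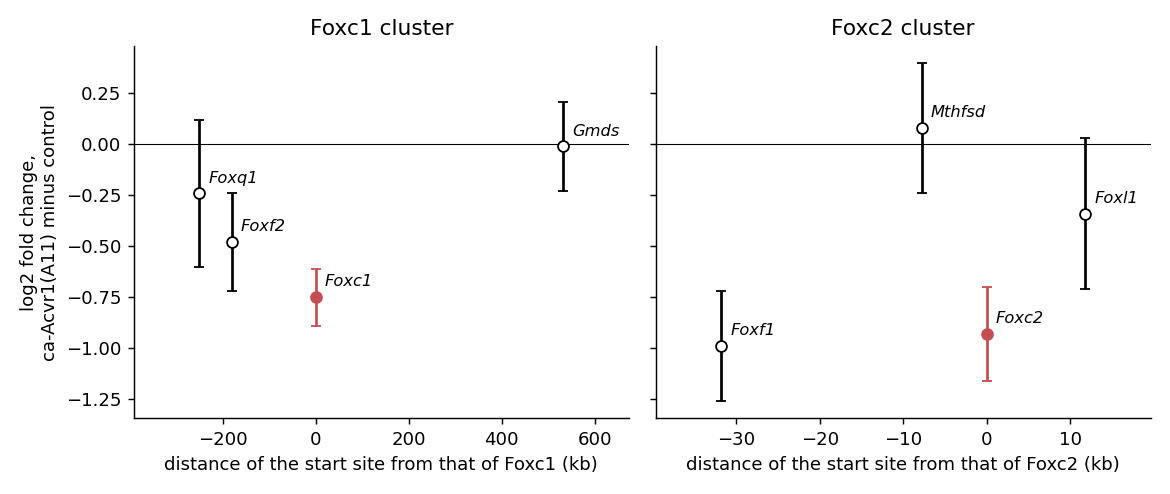
Log2 fold change, ca-*Acvr1(A11)* minus control, with standard errors and red points for adjusted p under 0.05, of the genes of the clusters on chromosomes 13 and 8 against the distance of their start site in kb from that of *Foxc1* and *Foxc2*. *Foxc1*, *Foxc2* and *Foxf1* lie between −0.99 and −0.75, and *Gmds* and *Mthfsd*, which are not forkhead genes, lie at −0.01 and 0.08.

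Of 34 other forkhead genes 19 were listed and 18 tested. None was called in either direction by limma, edgeR or DESeq2, and at an unadjusted p under 0.05 2 were higher and 1 was lower (*Foxd3*). Of the 2 higher genes *Foxa2* had 1 and 0 reads in control libraries and 5 and 4 reads in mutant libraries. Their median was 0.06, against −0.59 for the members. The cell cycle factor *Foxm1* and the repressor *Foxn3* had values of 0.07 and 0.09 (adjusted p = 0.95 and 0.927). *Foxd3*, a marker of early neural crest, had 0.468 to 7.99 CPM.

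Hedgehog signaling was described by a list of 19 genes, of which 15 were tested. Of these, 2 were called lower, *Gas1* and *Shh*, 0 were called higher, and the median was −0.18. *Gas1*, a cell surface protein that helps cells to bind Hedgehog ligand, stood at 214.1 and 325 CPM in control libraries and at 171.5 and 154 CPM in mutant libraries. The groups did not overlap, and *Gas1* fell by 0.70 on the log2 scale (SE 0.16, limma adjusted p = 0.0303, range over the alternatives 1.88e-07 to 0.583). The call held under 12 of 17 alternatives. It was lost with DESeq2 (adjusted p = 0.0782) and with limma at a pseudocount of 0.1 CPM (0.0577) or without the mean-variance trend (0.583). It was also lost without control replicate 2 (log2 fold change −0.40) or ca-*Acvr1(A11)* replicate 2 (−0.62). *Gpc3*, a glypican that binds Hedgehog, had −0.49 (adjusted p = 0.128).

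The deposited values of *Shh*, *Ptch1*, *Gli1*, *Gli2* and *Gli3* were not all whole reads, so the direction of these genes rests on values unlike those of the rest of the table. *Shh*, the ligand, was deposited at 56.4 and 47.8 CPM in control libraries and at 32.8 and 23.9 CPM in mutant libraries (log2 fold change −0.87, limma adjusted p = 0.0383). The control values correspond to 110.27 and 107.58 reads, and they exceed the nearest whole-read values of the same decimals, 16.4 and 17.8 CPM, by exactly 40 and 30 CPM. With the whole-read values *Shh* was higher in ca-*Acvr1(A11)* tissue by 0.68 (SE 0.25) and was not called (limma adjusted p = 0.311), while *Gas1* kept its call (0.0339). *Gli3*, the transcriptional effector, went from 0.35 as deposited (adjusted p = 0.432) to −0.03 (0.979) in the same way, and the pathway readouts *Ptch1* and *Gli1* from 0.35 and 0.32 to −0.66 and −0.51, also not called. In all, 43 values of 22 genes were not whole reads and 0 of these genes is a forkhead factor. A second whole-read match existed for control replicate 1 of *Shh* and for ca-*Acvr1(A11)* replicate 2 of *Gli3*, *Ptch1* and *Gli1*. The nearest match was used. The origin of these values was not tested. With the whole-read values *Foxp2* and *Foxc1* were called (adjusted p = 0.00113 and 0.00756, among 0.514% of all genes called lower), and *Foxc2* was not (0.0537).

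Partners and co-factors of forkhead proteins were described by a list of 19 genes, of which 17 were tested. None was called by limma, edgeR or DESeq2, 1 was higher and 1 lower at an unadjusted p under 0.05, and the median was 0.02. Among the most abundant, the histone deacetylase *Hdac2* stood at 416 and 612.2 CPM in control libraries and at 419.3 and 451.6 CPM in mutant libraries, and the co-repressor *Ctbp2* at 252.4 and 232.6 against 233.3 and 252.2 CPM. Their groups overlapped, and their log2 fold changes were −0.21 and 0.00.

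Some marker lists of cell types also differed between the groups. Of 32 facial mesenchyme markers 30 were tested, 12 were called lower and 0 higher, and the median was −0.73. Their summed level was 4038 and 4157 CPM in control libraries and 2967 and 3073 CPM in mutant libraries. Of 18 epithelial markers tested, 3 were called higher (*Cdh1*, *Perp*, *Epcam*), and their summed level went from 317.9 to 347 CPM in control libraries up to 490.9 to 528.9 CPM. Of 10 macrophage markers 2 were called higher (*Cx3cr1*, *Mrc1*), with a summed level of 56.2 to 56.4 CPM against 93.0 to 132 CPM. DESeq2 called 8 of the mesenchyme markers lower and 0 of the epithelial and macrophage markers.

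None of 17 neural markers was called by limma, edgeR or DESeq2, with 7 higher and 1 lower at an unadjusted p under 0.05 and a summed level of 1680 to 1732 CPM against 2096 to 2206 CPM. Of 18 endothelial, 5 glial and crest, 6 muscle and 8 erythroid markers tested, 0 were called by any of these tools, and their medians were 0.01, −0.20, 0.19 and −0.12. At an unadjusted p under 0.05 1 marker of glia and crest was higher and 2 were lower, and none of the other 3 lists had such a gene. The part of tissue makeup in the levels of the forkhead factors was not tested.

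**Figure D5:**
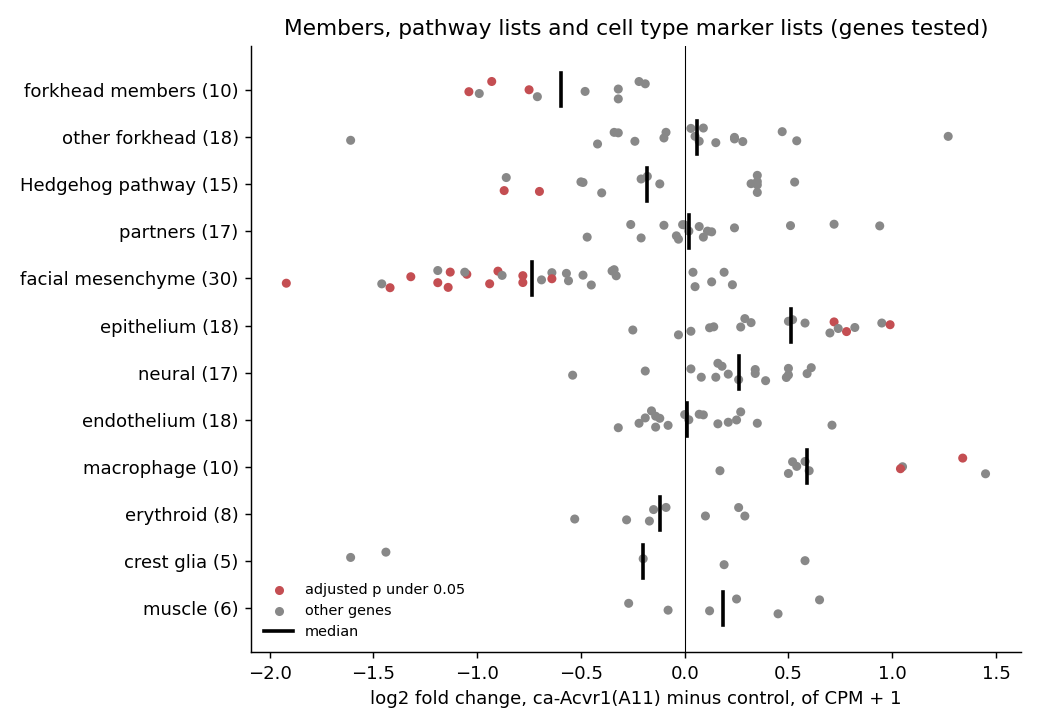
Log2 fold changes, ca-*Acvr1(A11)* minus control, of the genes of each list, 1 point a gene, red where adjusted p is under 0.05, with the median of the list as a line and the Hedgehog genes at their deposited values. The forkhead members have a median of −0.59 and the facial mesenchyme markers of −0.73, while the other forkhead genes have 0.06, epithelial markers 0.51 and macrophage markers 0.59.

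Set against the summed mesenchyme markers, the forkhead factors had unlike ratios. The summed markers themselves fell, to a ratio of 0.737 in mean CPM (0.637 without *Vim*). A gene with unchanged CPM therefore has a ratio above 1 on this scale. For the members, all lower in mean CPM, a ratio above 1 means a fall smaller than that of the markers. *Foxp2* stood at 35.3 and 47.1 CPM for 1000 CPM of markers in control libraries and at 23.9 and 29.8 in ca-*Acvr1(A11)* libraries, a ratio of 0.653. *Foxc1* stood at 51.6 and 53.3 against 41.1 and 43.6, a ratio of 0.807. Neither gene overlapped between the groups, also with *Vim* left out of the markers (ratios of 0.754 and 0.933).

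*Foxp1* fell less than the markers in mean CPM (a ratio of 0.873). On this scale it stood at 102 and 107 in control libraries and at 122 and 125 in ca-*Acvr1(A11)* libraries (a ratio of 1.19, and 1.37 without *Vim*). *Foxf1*, *Foxc2* and *Foxd1* had ratios of 0.677, 0.700 and 0.823, *Foxl2* and *Foxf2* of 0.860 and 0.936, and *Foxp4* and *Foxd2* of 1.08 and 1.18. Among these genes only the groups of *Foxc2* were apart with all markers, and those of *Foxf1*, *Foxd1* and the others overlapped. Without *Vim*, *Foxp4* and *Foxd2* had ratios of 1.25 and 1.36 and their groups did not overlap, while the groups of *Foxc2* (0.808) then overlapped. The sum of the 10 genes had a ratio of 0.947 with all markers and of 1.10 without *Vim*. These ratios carry no test, and their direction for *Foxf2* and for the sum depends on *Vim*. The share of all genes whose groups do not overlap on this scale was not computed.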

How the data were processed

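Bulk RNA-Seq was made from NP tissue of mouse embryos at E11.5 with the QuantSeq 3′ kit, and the authors deposited a table of CPM values, scaled to library totals, for 13577 genes in 4 columns. The table has 33470 empty lines, and no value column was left unused. STAR, featureCounts 1.6.4, DESeq2 and mm10 are named in the submitters' processing notes. The whole reads behind the CPM values were recovered from the smallest step of each library, and 99.92% of 54308 values came out whole within 0.02 reads, giving totals of 1956831 and 2252586 (control) and 2408827 and 2137027 (ca-*Acvr1(A11)*). For the 43 others, the nearest whole-read value differing by a whole number of CPM, within 500 CPM, was found. All 43 had one and 26 had no second, and this alternative was chosen after seeing the data. With so many shifts tried a match can also arise by chance, and how often was not tested.

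Groups were taken from the titles. The main test was limma 3.58.1 with a mean-variance trend on log2(CPM + 1). Genes were tested where their mean over libraries exceeded 1 CPM (12462), and p was adjusted over all of them by Benjamini-Hochberg, with a threshold of 0.05. edgeR 4.0.16 and DESeq2 1.42.0 were run on the recovered reads (R 4.3.3, Python 3.11.15). The fits were tested on simulated data. Members and lists were chosen with earlier results of these data known. Named genes were the 10 members and, from the other forkhead, Hedgehog and partner lists, up to 3 genes called and the 3 with the highest mean CPM. Some genes that this rule names are not reported here. Some genes at an unadjusted p under 0.05 in these lists, the readouts *Ptch1* and *Gli1*, *Gli2*, *Acvr1*, the cluster neighbors and the called cell type markers were named in addition. Coordinates are from GENCODE M21 (GRCm38) and promoters from RefSeq (GRCm38.p6).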

Additional observations from a re-analysis of the deposited data

How the results depend on the processing

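The direction of the forkhead factors was the same under each alternative that gave them a value (*Foxl2* had no value with the filter above 5 CPM and no adjusted p from DESeq2), apart from *Foxd2* (−0.47 to 0.04) and *Foxl2* (−1.08 to 0.43) when single libraries were left out. The median of the members stayed between −0.91 and −0.43. Forkhead factors called lower numbered 3, and 5 with TMM scaling, 5 with edgeR, 5 with the replicate block, 0 without the mean-variance trend and 1 to 6 when single libraries were left out. No other alternative moved this count by more than 1. Over all tested genes the number called lower rose too, from 74 of 12462 to 94 of 12456 with TMM scaling. It was 107 of 12462 with edgeR and 132 of 12462 with the replicate block. Over all genes, 38 were called higher and 74 lower, against 8 and 31 with DESeq2, 97 and 132 with the replicate block, 0 and 0 without the trend, and 31 to 240 and 54 to 225 when single libraries were left out. edgeR called 42 and 107. The replicate block also gave 1 call among other forkhead genes (0 to 2 when single libraries were left out). The replicate numbers were not taken to pair the libraries, since the labels do not tie them and there are only 2 pairs (correlation of same-numbered deviations 0.0671 over 12462 genes). Hedgehog genes called numbered 2, and 0 with a pseudocount of 0.1, with DESeq2 or without the trend, 0 to 2 when single libraries were left out, and 1 both without the 22 genes that hold values other than whole reads and with the whole-read values. With the latter *Shh* reversed to 0.68 and *Gli3* to −0.03. The replicate block gave 3 Hedgehog calls. Partner genes called numbered 0, and 0 to 2 when single libraries were left out. *Ctbp2*, at 0.00, reversed to −0.03 with TMM, RLE, edgeR and DESeq2 and to −0.04 with upper quartile scaling. When single libraries were left out *Ctbp2* ran from −0.06 to 0.06, *Foxm1* from −0.15 to 0.29, *Foxn3* from −0.05 to 0.24 and *Hdac2* from −0.49 to 0.06. For these changes the cause was not tested. edgeR and DESeq2 used reads rounded to whole numbers. The 3 to 14 reads of *Foxl2* limit what can be seen of it.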
